A study of Mus musculus with 66 samples.

Results

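Embryonic stem cells that had just left mitosis were compared 90 minutes after release, with against without auxin, over all genes that reached 1 TPM in any of the 18 group means of the series. This selection keeps 8999 of 13957 genes. TPM gives the level of an RNA per unit of gene length, as a share of its library. The group with auxin consisted of 3 libraries of an E14Tg2a derivative (129/Ola, mouse) in which auxin induces degradation of the nuclear receptors Esrrb and Nr5a2, taken 90 minutes after release. The group without auxin consisted of 3 libraries of the same derivative at the same time. The series holds both arms also in mitosis, at 20, 30, 40, 50, 60 and 120 minutes and in asynchronous cells, with 3 RNA libraries per group, and Nr5a2 ChIP-seq of wild-type E14Tg2a cells. All libraries carry the entry for a control treatment, so which arm a library belongs to was read from its title. Auxin was not given to cells lacking the degradable receptors in any library, and Esrrb and Nr5a2 are lost at once, so effects of auxin, of Esrrb loss and of Nr5a2 loss cannot be told apart.

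Each value is the mean of 3 libraries that the authors deposited. No spread between replicates can be computed, no gene has a test, and nothing says that the libraries came from separate cultures. Differences are log2(TPM + 1) with auxin minus without auxin, a scale that understates the change of low genes, and a gene is counted where its TPM + 1 differed at least 1.5-fold. The depth is unknown, because TPM keeps none, and the sources do not say whether spliced or unspliced RNA was quantified. Over the table, genes summed to 45493 TPM with auxin and 45046 TPM without auxin. The 7 embryonic stem cell markers in the table were at 1 TPM or more in both groups and summed to 103 TPM with auxin and 140 TPM without auxin. All 7 also belong to the naive pluripotency list below. Of the other markers, the table held 4 of 6 for primitive endoderm, 3 of 5 for trophectoderm, 3 of 7 for fibroblasts and 3 of 5 for germ layers. With auxin, primitive endoderm markers summed to 0.439 TPM, trophectoderm markers to 0.767 TPM, fibroblast markers to 0.252 TPM and germ layer markers to 2.62 TPM. Without auxin these sums were 0.428, 0.929, 0.390 and 3.22 TPM. None of the measured markers was at 0 in both groups. Of the germ layer markers Pax6 alone exceeded 1 TPM. In bulk RNA, fewer cells of a type and less RNA per cell cannot be told apart.

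Esrrb is an orphan receptor related to the estrogen receptors and Nr5a2 (LRH-1) an orphan receptor that binds DNA as a monomer. Both recognise closely related extended half-sites, both belong to the transcription factor network that keeps mouse embryonic stem cells in the naive state, and both are known to stay on part of their sites in mitotic chromatin, which is called mitotic bookmarking. In the first hours after mitosis transcription restarts in G1, and the comparison asks which genes come back to a different level when both receptors have been degraded.

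The windows of 5 promoters are printed because each holds both an Nr5a2 peak and a receptor half-site at a gene described below. They are RefSeq windows of GRCm38.p6, the build also called mm10, from 250 bases before to 50 bases after an annotated start, with the peak taken from the authors' list and the match to the half-site in capitals, on either strand. Ldhb (lactate dehydrogenase), Zfp57 (a guardian of imprints), Got1 (aspartate aminotransferase) and Zfp42 (Rex1, a naive marker) were lower with auxin, and Uqcc3 (an assembly factor of the respiratory chain) was higher. The windows of Zfp57, Got1 and Zfp42 were chosen after their values were seen. The windows are chr6:142507908-142508207 on the minus strand for Ldhb, chr17:37002275-37002574 on the plus strand for Zfp57, 1 of its 3 annotated starts, chr19:43524556-43524855 on the minus strand for Got1, chr8:43306960-43307259 on the minus strand for Zfp42 and chr19:8880884-8881183 on the minus strand for Uqcc3.
Ldhb: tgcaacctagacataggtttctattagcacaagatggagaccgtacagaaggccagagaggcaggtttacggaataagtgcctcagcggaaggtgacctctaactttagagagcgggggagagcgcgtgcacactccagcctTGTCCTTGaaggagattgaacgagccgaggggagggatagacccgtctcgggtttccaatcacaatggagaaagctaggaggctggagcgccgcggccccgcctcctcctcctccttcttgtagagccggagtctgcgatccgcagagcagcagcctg
Zfp57: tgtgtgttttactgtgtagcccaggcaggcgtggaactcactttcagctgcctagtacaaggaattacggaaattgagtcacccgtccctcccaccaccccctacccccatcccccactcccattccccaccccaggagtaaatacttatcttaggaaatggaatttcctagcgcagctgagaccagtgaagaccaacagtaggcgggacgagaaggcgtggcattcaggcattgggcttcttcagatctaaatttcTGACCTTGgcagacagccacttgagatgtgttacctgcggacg
Got1: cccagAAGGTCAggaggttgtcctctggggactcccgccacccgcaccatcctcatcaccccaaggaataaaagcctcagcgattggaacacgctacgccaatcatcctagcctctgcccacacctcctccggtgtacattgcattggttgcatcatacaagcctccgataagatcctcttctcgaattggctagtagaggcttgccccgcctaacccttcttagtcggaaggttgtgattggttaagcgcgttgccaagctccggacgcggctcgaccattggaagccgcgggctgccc
Zfp42: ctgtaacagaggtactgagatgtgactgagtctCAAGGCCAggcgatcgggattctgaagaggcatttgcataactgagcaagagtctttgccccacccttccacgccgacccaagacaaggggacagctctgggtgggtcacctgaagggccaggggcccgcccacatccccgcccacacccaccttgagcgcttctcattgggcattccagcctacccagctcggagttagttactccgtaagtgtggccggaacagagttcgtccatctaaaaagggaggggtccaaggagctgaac
Uqcc3: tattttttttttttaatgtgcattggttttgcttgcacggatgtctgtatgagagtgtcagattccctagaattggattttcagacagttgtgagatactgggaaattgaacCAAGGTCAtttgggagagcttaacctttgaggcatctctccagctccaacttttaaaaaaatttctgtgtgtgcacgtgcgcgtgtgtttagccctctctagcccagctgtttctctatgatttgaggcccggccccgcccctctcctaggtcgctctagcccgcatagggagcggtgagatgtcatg
The match begins at -108 from the start in Ldhb (CAAGGNCA, read on the opposite strand), at 7 in Zfp57 (CAAGGTCA, read on the opposite strand), at -245 in Got1 (AAGGTCA), at -217 in Zfp42 (CAAGGNCA) and at -138 in Uqcc3 (CAAGGTCA).

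Most RNA levels were alike in both groups 90 minutes after release. The median difference over the 8999 genes was 0.03, the middle 95% of genes lay between -0.28 and 0.20, and 6671 genes (74.1%) differed by less than 0.1. At least 1.5-fold lower with auxin were 36 genes (0.4%), and at least 1.5-fold higher were 10 genes (0.111%). At any size, 36.5% were lower and 63.5% higher, a split that moves with the scaling: relative to the median of all genes it is 50% lower and 50% higher, and with quantile normalization 41.8% lower and 57.8% higher. The differences past 1.5-fold were mainly on the lower side.

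**Figure D1:**
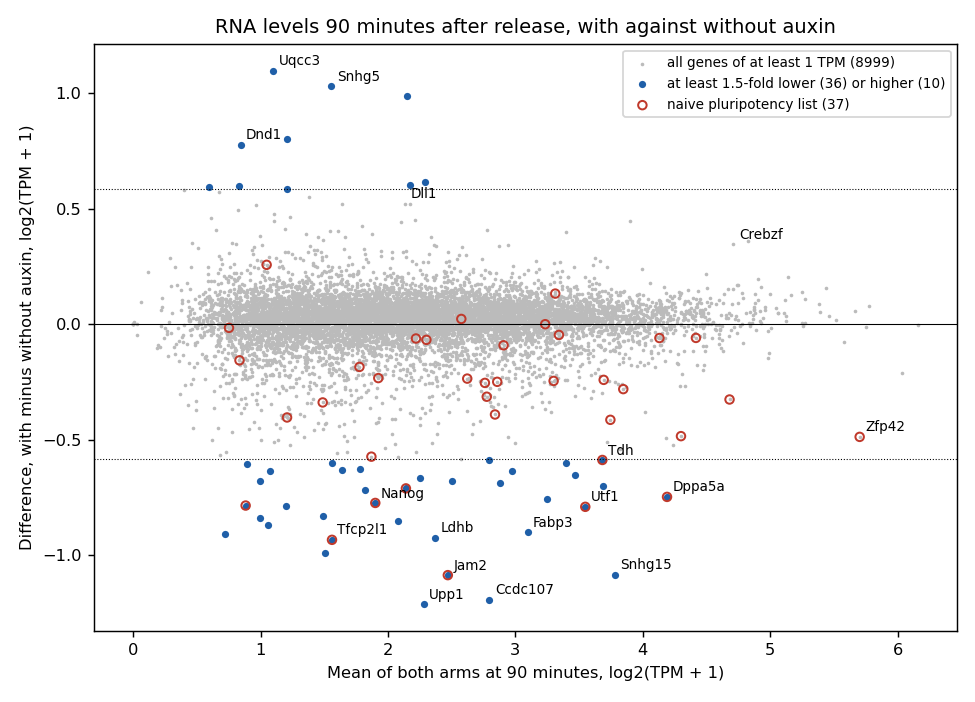
Each point is 1 of 8999 genes 90 minutes after release. The x axis gives the mean of both groups in log2(TPM + 1) and the y axis the difference with auxin minus without auxin in log2(TPM + 1). Blue points are the 36 genes at least 1.5-fold lower and the 10 at least 1.5-fold higher with auxin, red circles the 37 naive pluripotency genes, and dotted lines mark 1.5-fold. Most red circles lie below 0, and no blue point on the higher side has a high mean level.

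The RNA of the targeted receptors themselves differed little. Esrrb had 6.27 TPM with auxin and 6.74 TPM without auxin at 90 minutes, a difference of -0.09. Nr5a2 had 5.65 TPM with auxin and 6.90 TPM without auxin, a difference of -0.25. Neither reached 1.5-fold, and these values do not measure the protein that auxin degrades. Esrrb was lower with auxin at all 7 times after release, and in asynchronous cells it had 2.53 TPM with auxin and 3.86 TPM without auxin. Nr5a2 was lower with auxin at 5 of 7 times, and at 30 minutes it was higher, with 2.66 TPM against 2.17 TPM without auxin.

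The naive pluripotency network was lower with auxin. Of 40 listed genes 39 were in the table and 37 passed 1 TPM. Of these, 34 were lower at 90 minutes, 8 at least 1.5-fold, and their median difference was -0.25, beside 0.03 over all genes. None was at least 1.5-fold higher. Below the lower end of the middle 95% of all genes were 18 of the 37 (48.6%), and by construction 2.5% of all genes lie there. Sox2 was not analysed here. The list was chosen with earlier results of these data known.

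Transcription factors of the network had some of its largest differences. Tfcp2l1, a factor of the LIF and Wnt response, had 1.13 TPM with auxin and 3.08 TPM without auxin (-0.93). Nanog, a homeodomain factor, had 1.85 TPM with auxin and 3.88 TPM without auxin (-0.77). Nr0b1 (Dax1), an orphan receptor without the usual DNA-binding domain that acts on Nr5a2 and Esrrb target genes, had 0.404 TPM with auxin and 1.42 TPM without auxin (-0.79). All of these were at least 1.5-fold lower, and they were among the less abundant members of the list. Tbx3, a T-box factor, had 2.45 TPM with auxin and 4.64 TPM without auxin (-0.71), and Utf1, a chromatin-bound cofactor, had 7.90 TPM with auxin and 14.4 TPM without auxin (-0.79). Zfp42 (Rex1), the most abundant naive marker here, had 43.0 TPM with auxin and 60.7 TPM without auxin (-0.49). The difference of Zfp42 in TPM was thus the largest of the list although its ratio was below 1.5-fold.

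The Krüppel-like factors differed by less. Klf5 had 10.6 TPM with auxin and 14.5 TPM without auxin (-0.41), Klf4 1.49 TPM with auxin and 2.15 TPM without auxin (-0.34), and Klf2 12.0 TPM with auxin and 14.9 TPM without auxin (-0.28). Core factors of pluripotency stood near equal levels. Pou5f1 (Oct4) had 16.2 TPM with auxin and 16.9 TPM without auxin (-0.06), and Sall4, a zinc finger factor, had 8.41 TPM in both groups. Rif1, Dppa2, Dppa4 and Dppa3 lay between -0.06 and -0.02.

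Genes of signalling, adhesion and metabolism in the same list were lower as well. Jam2, a junctional adhesion molecule, had the largest difference of the list, with 2.80 TPM with auxin and 7.07 TPM without auxin (-1.09). Dppa5a, an RNA-binding protein of early embryos, had 13.1 TPM with auxin and 22.7 TPM without auxin (-0.75). Tdh, an enzyme of threonine breakdown, had 9.47 TPM with auxin and 14.7 TPM without auxin (-0.59). Tdgf1 (Cripto), a Nodal co-receptor, had 15.6 TPM with auxin and 22.3 TPM without auxin (-0.48), and Tcl1, an Akt co-activator, had 2.0 TPM with auxin and 3.46 TPM without auxin (-0.57). The LIF receptor subunits Lifr (-0.23) and Il6st (-0.24) were lower by less than 1.5-fold. The 3 remaining members were higher, all by less than 1.5-fold. Stat3, the transducer of LIF, had 9.40 TPM with auxin and 8.49 TPM without auxin (0.13), Gbx2, a homeobox factor, had 1.26 TPM with auxin and 0.891 TPM without auxin (0.26), and Lin28a, a regulator of let-7, was at 0.02, a sign that turned when all differences were centred on the median.

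**Figure D2:**
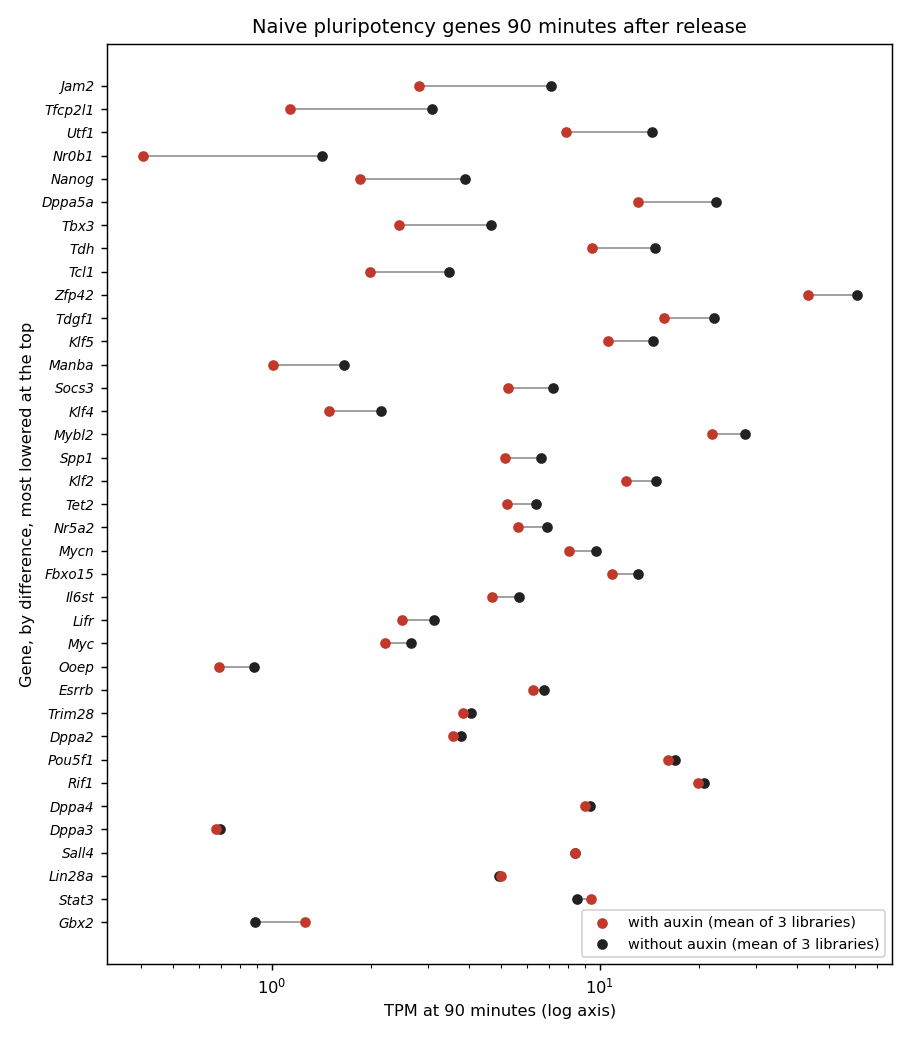
The 37 naive pluripotency genes of at least 1 TPM, sorted by their difference 90 minutes after release. The x axis is TPM on a log axis, red points are the group with auxin and black points the group without auxin, each the mean of 3 libraries without a spread. Red lies to the left of black from Jam2 (2.80 and 7.07 TPM) to Tbx3 (2.45 and 4.64 TPM) and below, and only Gbx2, Stat3 and Lin28a have red to the right.

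The levels of these genes relative to mitosis were also lower with auxin. Over the 37 naive genes the median log2 ratio of 90 minutes to mitosis was 0.91 with auxin and 1.16 without auxin. Over all genes it was 0.95 in each arm. A smaller ratio with auxin was found for 32 of the 37, beside 3694 of the 8999 genes. Without auxin all 37 were above their mitotic level at 90 minutes, as were 8760 of the 8999 genes. With auxin 33 of the 37 were, beside 8753 of the 8999 genes. The remaining 4 naive genes were Nanog (ratio -0.30 with auxin, 0.17 without auxin), Nr0b1 (-0.18 with auxin, 0.51 without auxin), Tfcp2l1 (-0.07 with auxin, 0.42 without auxin) and Tdh (-0.02 with auxin, 0.28 without auxin). Part of the difference was there in mitosis, where the median over the naive genes was already -0.10, beside 0.01 over all genes. In all, the level at 90 minutes was 2-fold or more that of mitosis for 4202 genes (46.7%) with auxin and 4043 genes (44.9%) without auxin. The genes of the table together summed to 17155 TPM with auxin and 17189 TPM without auxin in mitosis. At 90 minutes they summed to 45493 TPM with auxin and 45046 TPM without auxin. The ratios to mitosis were not corrected for this rise of the total, and its cause was not tested.

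Outside the naive list, Upp1 (uridine phosphorylase), which splits uridine for salvage, had the largest difference of all 8999 genes, with 2.19 TPM with auxin and 6.39 TPM without auxin (-1.21). It was above its mitotic level in both arms, and its levels at 60 minutes were 1.64 TPM with auxin and 4.32 TPM without auxin, and at 120 minutes 1.48 TPM with auxin and 5.33 TPM without auxin. Ldhb, whose promoter is printed above, had 2.75 TPM with auxin and 6.12 TPM without auxin (-0.92). Fabp3, a fatty acid carrier, had 5.25 TPM with auxin and 10.7 TPM without auxin (-0.90). These genes were lower with auxin at all 7 times after release. Got1, of the malate-aspartate shuttle, had 7.57 TPM with auxin and 12.0 TPM without auxin (-0.60).

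Further genes at least 1.5-fold lower have roles in adhesion, signalling or chromatin. Ntn1 (netrin 1), a secreted guidance cue, had 2.15 TPM with auxin and 4.69 TPM without auxin (-0.85) and was the only one of the 36 lower genes below its mitotic level in both arms. Fzd5, a Wnt receptor, had 7.83 TPM with auxin and 12.9 TPM without auxin (-0.65), but at 60 minutes it stood at 15.1 TPM with auxin and 14.6 TPM without auxin. Zfp57, which protects imprinted DNA methylation, had 9.09 TPM with auxin and 15.4 TPM without auxin (-0.70). Zfp281, a zinc finger factor of the exit from naive pluripotency, had 1.11 TPM with auxin and 2.75 TPM without auxin (-0.83), with differences of 0.14 at 60 minutes and -0.24 at 120 minutes. Nid2 (nidogen 2, basement membrane), Igfbp2 (binds insulin-like growth factors) and St8sia1 (a ganglioside sialyltransferase) lay between -0.68 and -0.59. Zfp281 and Fzd5 thus differed from Zfp57, Nid2, Igfbp2 and St8sia1, which were lower at all 7 times.

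Several large differences at 90 minutes were not shared by the neighbouring times. Ccdc107 had 3.59 TPM with auxin and 9.50 TPM without auxin (-1.19) at 90 minutes, and -0.14 at both 60 and 120 minutes. Snhg15, a small nucleolar RNA host gene, had 8.44 TPM with auxin and 19.0 TPM without auxin (-1.09), and its differences at the other times ran from -2.32 to 0.55. Zc3h7a had 6.30 TPM with auxin and 11.3 TPM without auxin (-0.76), while its other times ran from -0.56 to 4.13 and the authors' deposited table calls it higher. Gm5741 (-0.87), Swsap1 (-0.84, a recombination factor) and Adam1a (-0.72) were higher with auxin at 120 minutes. Fam177a (-0.99) was lower with auxin at 60 minutes (-0.74) and higher at 120 minutes (0.17), and Gdf1 (-0.91), a growth factor of the TGF-beta family, was at -0.10 and -0.34 at these times. The other genes at least 1.5-fold lower were Ubb (-0.69), Mif (-0.67), Arc (-0.64), Mir298 (-0.63), Srrm4os (-0.63), 2210011C24Rik (-0.61) and Rnf125 (-0.60), with Lrrc34 (-0.79) and Chchd10 (-0.63). Of these, Srrm4os, Rnf125, Lrrc34 and Chchd10 were lower at all 7 times. 1810044D09Rik (-0.44) and 9330020H09Rik (-0.39), which did not reach 1.5-fold, were higher with auxin at both 60 and 120 minutes. Genes hosting or overlapping other RNAs, such as Snhg15, may share reads with them, so their values are uncertain. Fam177a (-0.99) and 1700047I17Rik2 (0.99) lie near each other on chromosome 12, with spans of 17670 and 17905 bp. Whether they share reads was not tested, so their opposite differences cannot be taken as separate changes.

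The 10 genes at least 1.5-fold higher all had means of both groups under 5 TPM, and none of them is called in the authors' deposited table. Uqcc3 had 2.13 TPM with auxin and 0.465 TPM without auxin (1.1), but -0.31 at 60 minutes and -0.14 at 120 minutes. Snhg5, another small nucleolar RNA host gene, had 3.20 TPM with auxin and 1.06 TPM without auxin (1.03), and its other times ran from -1.54 to 2.59. Dnd1, an RNA-binding protein of germ cells, had 1.35 TPM with auxin and 0.370 TPM without auxin (0.78), and -0.07 at 60 and -0.02 at 120 minutes. None of the 10 was higher at all 7 times, and 3 were higher at both 60 and 120 minutes. The others were 1700047I17Rik2 (0.99, near Fam177a, see above), Lyrm2 (0.80), Hist1h2br (0.62, with close copies in the genome), Nkx2-9 (0.60), Myl6 (0.60), Glmp (0.59) and Mterf1a (0.59). Next below 1.5-fold, apart from Dll1 described below, stood Lrch4 (0.58), Mrpl34 (0.57), Dusp28 (0.55), Zfp747 (0.52), Ppdpf (0.52), Pold4 (0.51), Vkorc1 (0.50), 0610040B10Rik (0.48) and Hhex (0.46), none of them called in the authors' deposited table. Dusp28 was at -0.43 at 60 minutes and -1.34 at 120 minutes, and Commd5 (0.33) and Adat3 (0.25) were at -1.28 and -1.27 at 60 minutes.

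Smaller but steadier higher levels were seen in Notch ligands and a cofactor. Dll1, a Notch ligand, had 4.26 TPM with auxin and 2.66 TPM without auxin (0.52) and was higher with auxin at all 7 times after release. Jag1, another Notch ligand, had 5.72 TPM with auxin and 4.32 TPM without auxin (0.34), also higher at all 7 times. Crebzf, a coregulator of nuclear receptors, had 28.5 TPM with auxin and 22.2 TPM without auxin (0.35) and was higher at all 7 times. All of them are called higher in the authors' deposited table. Hes1, a transcriptional target of Notch, went the other way, with 2.95 TPM with auxin and 4.16 TPM without auxin (-0.38). Of the 12 Notch pathway genes of at least 1 TPM, 3 were lower and 9 higher, with a median of 0.06, beside 0.03 over all genes.

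At the other stages the 36 lower genes kept a lower median. Their median difference lay between -0.34 and -0.23 from mitosis to 50 minutes. It was -0.46 at 60 minutes, -0.75 at 90 minutes, where they were chosen, -0.61 at 120 minutes and -0.49 in asynchronous cells. The other stages come from other libraries. Lower at both 60 and 120 minutes were 26 of the 36 (72.2%), beside 29.1% of all genes, and lower at all 7 times were 20 of the 36 (55.6%), beside 5.33% of all genes. These 20 are among the 26 that are called lower in the authors' deposited table, and the 9 that are not called include none. At 60 minutes 28 genes (0.311%) were at least 1.5-fold lower and 7 (0.0778%) higher, and at 120 minutes 49 genes (0.545%) were lower and 6 (0.0667%) higher. Of the 36, 8 were also at least 1.5-fold lower at 60 minutes and 21 at 120 minutes.

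**Figure D3:**
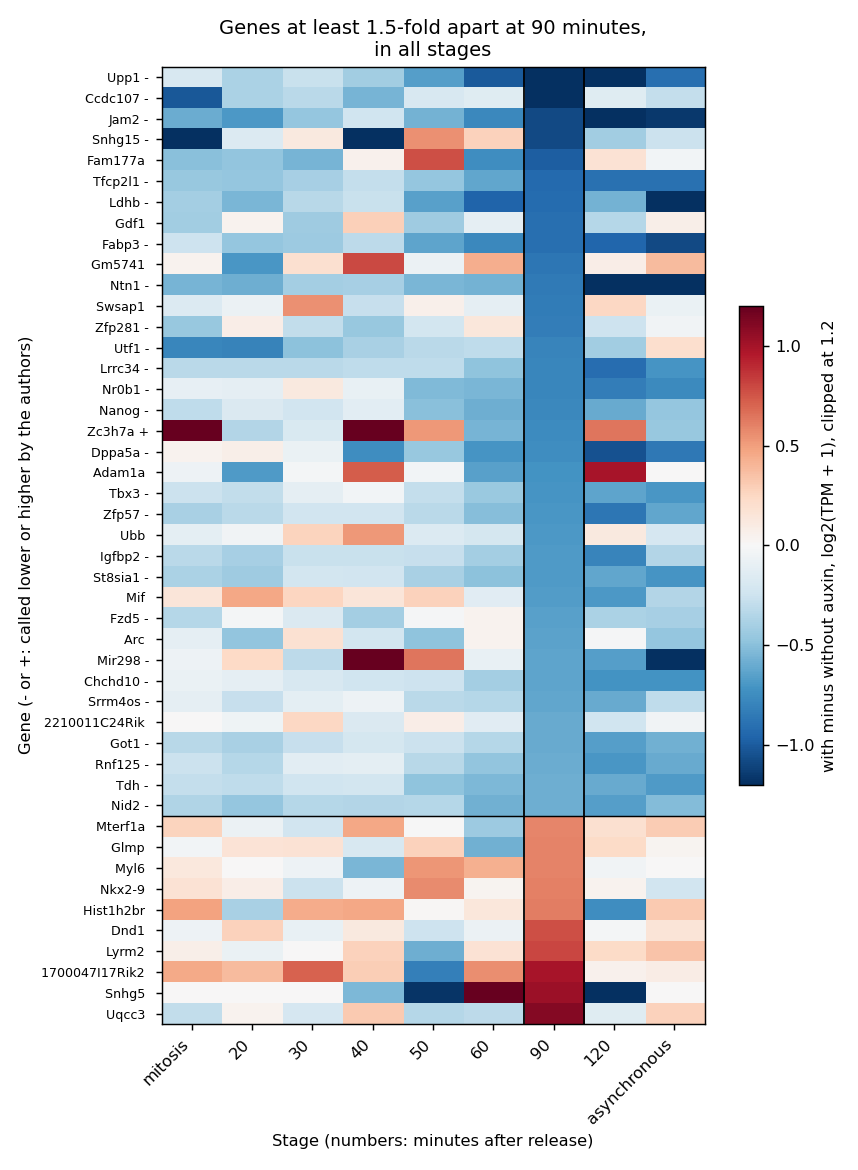
Rows are the 36 genes at least 1.5-fold lower (top) and the 10 at least 1.5-fold higher (below the line) with auxin 90 minutes after release, and columns are the 9 stages. Colour is the difference with auxin minus without auxin in log2(TPM + 1), blue for lower and red for higher, clipped at 1.2, and the mark after a gene is the call in the authors' deposited table. Rows with a minus sign are mostly blue throughout, such as Upp1 and Jam2, whereas unmarked rows such as Gm5741 and the 10 higher genes change colour between stages.

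The median difference of the naive list was lower from 60 minutes on than at the earlier stages. Its median difference lay between -0.13 and -0.07 from mitosis to 40 minutes and was -0.17 at 50 minutes. It then stood at -0.29 (60 minutes), -0.25 (90 minutes), -0.32 (120 minutes) and -0.28 (asynchronous cells). The median of all genes ran between -0.06 and 0.08 over the same stages. It was -0.06 at 60 minutes, 0.03 at 90 minutes and 0.04 at 120 minutes. Relative to the median of all genes, the naive list lay lower at 90 than at 60 minutes, and lower again at 120 minutes. Nanog shows the course of 1 gene. It had 4.35 TPM with auxin and 7.02 TPM without auxin at 60 minutes, and at 120 minutes 1.2 TPM with auxin and 2.4 TPM without auxin, so that both arms were lower at 120 than at 60 minutes, with the arm with auxin below at each.

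**Figure D4:**
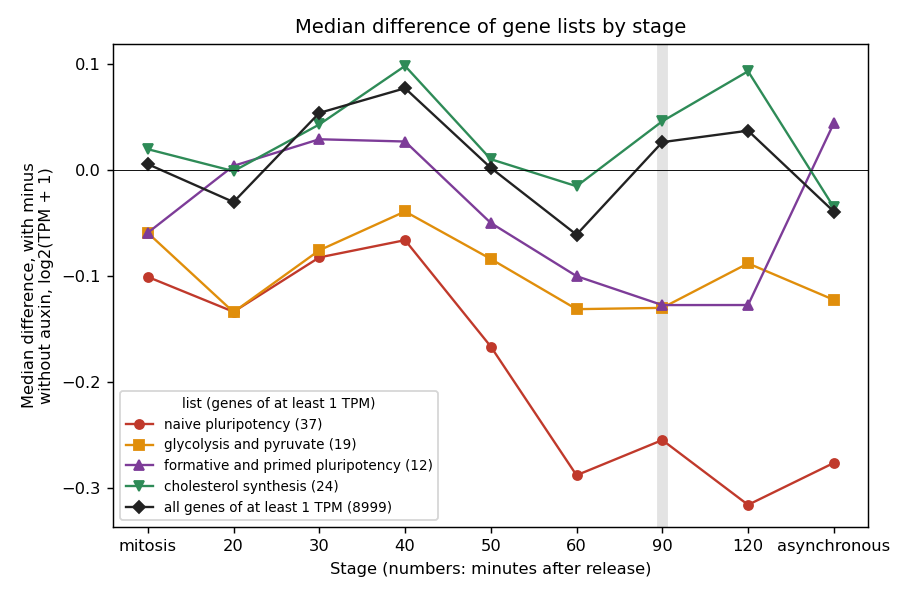
Median difference with auxin minus without auxin, in log2(TPM + 1), of 4 gene lists and of all 8999 genes at the 9 stages, with the number of genes in each list in the legend and 90 minutes shaded. At 90 minutes the naive list lies at -0.25, glycolysis and formative genes at -0.13, cholesterol synthesis at 0.05 and all genes at 0.03.

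Glycolysis genes were also lower. Of 19 genes of at least 1 TPM, 17 were lower (89.5%), beside 36.5% of all genes. Their median was -0.13, and 1 of them, Ldhb, reached 1.5-fold. Of the 22 glycolysis genes in the table, 7 are called lower and 2 higher in the authors' deposited table. Slc2a1 (GLUT1), the main glucose carrier, had 10.7 TPM with auxin and 16.1 TPM without auxin (-0.54). Pdk1, which holds pyruvate back from oxidation, had 2.46 TPM with auxin and 3.96 TPM without auxin (-0.52), and Pfkp, a phosphofructokinase, had 0.949 TPM with auxin and 1.58 TPM without auxin (-0.40). The list median was negative at all 9 stages. Of the genes of oxidative phosphorylation 19 of 37 (51.4%) were lower, beside 36.5% of all genes, with a median of 0.00. None reached 1.5-fold, and they ranged from Cox5a (-0.32) to Ndufb9 (0.31), both parts of the respiratory chain. Of the 38 oxidative phosphorylation genes in the table, 7 are called lower and 0 higher in the authors' deposited table. Over all 13957 genes, 1013 are called lower and 941 higher there.

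Formative and primed genes had 7 of 12 lower and a median of -0.13, beside 36.5% lower and a median of 0.03 over all genes. The lower members Spry4, with 13.2 TPM with auxin and 17.5 TPM without auxin (-0.38), Etv5 (-0.26) and Etv4 (-0.20) are also responders to FGF signalling, and Tcf15, a factor of the exit from the naive state, had 5.70 TPM with auxin and 7.57 TPM without auxin (-0.35). Nodal, a ligand, was on the higher side (0.18). Of the FGF and ERK list 13 of 22 were lower, with a median of -0.02. In the LIF and STAT3 list the feedback inhibitors Socs1 (-0.45) and Socs3 (-0.39) and the kinases Pim3 (-0.36) and Pim1 (-0.27) were lower. As a whole this list lay near all genes, with 10 of 16 members higher and a median of 0.04, beside 63.5% higher and 0.03.

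The basement membrane and matrix list had 9 of 16 lower and a median of -0.06, with Ntn1, Nid2, Timp1 (-0.39), Itga6 (-0.28) and Fn1 (-0.27, fibronectin) at its lower end. Trophectoderm genes were few, with 18 listed, 12 in the table and 3 of at least 1 TPM, and all 3 were lower, led by Tfap2c, a factor shared with germ cells, at 1.5 TPM with auxin and 2.68 TPM without auxin (-0.56). Germ layer genes had 3 of 5 lower (median -0.17), among them Pax6 (-0.21) and Tubb3 (-0.30). Nuclear receptors other than Nr0b1 and Nr5a2 included Rarg (-0.19) and Rara (-0.18), the retinoic acid receptors, and 11 of 18 receptors were lower, with a median of -0.04. All these counts stand beside 36.5% lower and a median of 0.03 over all genes.

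Housekeeping and cell cycle groups lay near the median of all genes, which was 0.03 with 36.5% of genes lower. G1/S and replication genes had 14 of 42 lower and a median of 0.04, ribosome biogenesis 9 of 27 and 0.04, cholesterol synthesis 4 of 24 and 0.05, heat shock 5 of 16 and 0.06, and Wnt 3 of 15 and 0.03. Immediate early genes had 3 of 12 lower and a median of 0.10, with Gadd45b highest (0.25). Mitotic G2/M genes had 20 of 41 lower and a median of 0.00 that turned negative with centring and with quantile normalization. The same turn affected the DNA methylation list (5 of 13 lower, median 0.01) and the coregulators of nuclear receptors (5 of 11, 0.00), and centring alone turned the p53 response (9 of 21, 0.02), the threonine and one-carbon list (5 of 15, 0.01) and the aryl hydrocarbon receptor list (1 of 4, 0.01). Nodal and BMP genes had 7 of 20 lower and a median of 0.05, and Polycomb genes 14 of 25 and -0.01. The primitive endoderm, 2-cell-like and fibroblast lists had 1 or 2 members of at least 1 TPM.

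The calls in the authors' deposited table were made on these same samples and are not independent of the differences. Of 851 genes of at least 1 TPM called lower there (9.46% of 8999), 775 (91.1%, 95% Wilson interval 89.0 to 92.8%) were lower at 90 minutes, with a median of -0.14. Of 767 called higher in the authors' deposited table (8.52%), 684 (89.2%, 95% Wilson interval 86.8 to 91.2%) were higher, with a median of 0.08. Over all 8999 genes, 36.5% were lower and 63.5% higher at 90 minutes. The intervals cover counting error over genes only. The called higher genes thus stood closer to the median of all genes than the called lower ones.

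Nr5a2 peaks of wild-type cells lay near most of the lower genes. The authors' list holds 35266 peaks in 4 classes coded L, eB, dB and nB, whose meaning the sources do not define, and has no signal per library. A peak within the gene or 10 kb of it was found for 34 of the 36 lower genes (94.4%), for 6 of the 10 higher genes (60%) and for 71.9% of the 8994 genes with a position. Of the lower genes 44.4% had a peak of class dB, beside 19.1% of all genes. All 37 naive genes had a peak, and 21 (56.8%) had 1 of class dB. Of the 26 lower genes that are called lower in the authors' deposited table, all had a peak and 16 (61.5%) a dB peak. Of the remaining 10 lower genes 8 had a peak and none a dB peak. Whatever their fold, the 851 genes with a lower call had a peak in 92.6% and a dB peak in 42.3% of cases. For the 766 genes with a higher call and a position these shares were 62.4% and 14.1%. In both shares the 36 lower genes thus lay near the 851 genes with a lower call. Within 2 kb in place of 10 kb, 75% of the lower genes and 57.5% of all genes had a peak.

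**Figure D5:**
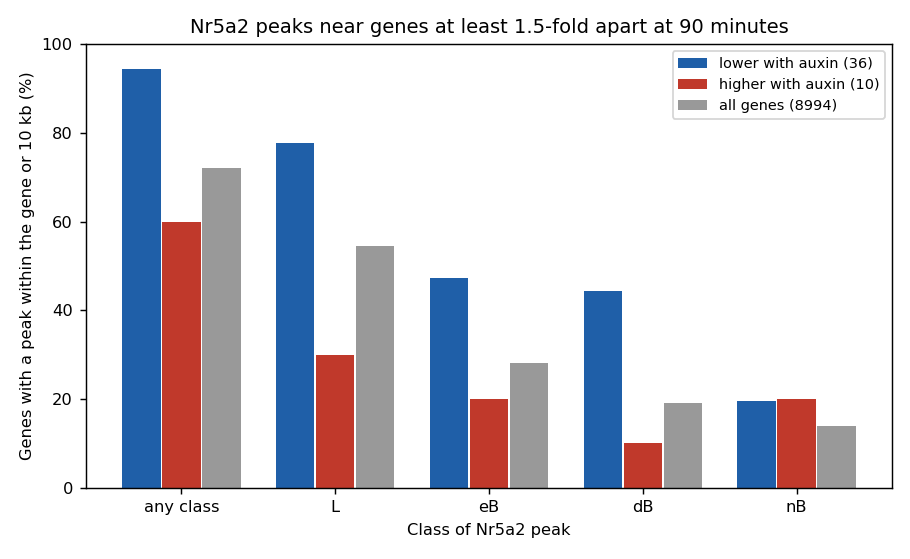
Share of genes, in percent, with an Nr5a2 peak within the gene or 10 kb of it, for any class and for each class code of the authors' list. Bars are the 36 genes at least 1.5-fold lower (blue) and the 10 at least 1.5-fold higher with auxin (red), and the 8994 genes of at least 1 TPM with a position (grey). With any class the bars stand at 94.4%, 60% and 71.9%, and with class dB at 44.4%, 10% and 19.1%.

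Tfcp2l1 had 10 peaks within the gene or 10 kb, Jam2 9, Ntn1 11, Nanog 2, Ldhb 2 and Upp1 1, and Dll1 had none. Over all genes, the share lower at 90 minutes was 58.8% of the 527 genes with 6 or more peaks (median difference -0.02), 46.1% of the 1778 with 3 to 5, 36.7% of the 1634 with 2, 32.9% of the 2532 with 1 and 28.5% of the 2523 with none (0.04). Genes with 6 or more peaks also had longer spans, with a median of 99067 bp against 17103 bp without a peak, and the part of span in this order was not tested.

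A peak over the promoter window was found for 11 of the 24 lower genes with a RefSeq window (45.8%), for 1 of 7 higher genes and for 1046 of 7266 genes of at least 1 TPM (14.4%). Half-sites were rare in these windows. On either strand, CAAGGTCA was found in 1.56% of all 32851 RefSeq windows, the looser CAAGGNCA in 6.71% and AAGGTCA, which is contained in CAAGGTCA, in 4.72%. The full TCAAGGTCA was found in 0.423% and in no window of the lower or higher genes. In the 9170 windows of genes of at least 1 TPM the shares were 1.16% for CAAGGTCA, 4.59% for CAAGGNCA and 3.09% for AAGGTCA. Among the lower genes, CAAGGTCA was in 1 of 33 windows, that of Zfp57, CAAGGNCA in 3 and AAGGTCA in 2. The windows of Upp1, Tfcp2l1, Fabp3, Lrrc34, Nr0b1, Nanog, Igfbp2 and Chchd10 had a peak over them and no match, which says only that these letters are not in the window.

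Gene span and level moved with the spread of the differences. In the shortest of 5 equal groups of genes by span (median 4616 bp) the differences had an SD over genes of 0.184, and this group held 18 of the 36 lower and 8 of the 10 higher genes. In the longest group (median 95424 bp) the SD was 0.0929, with 3 lower genes and no higher gene. By level, the SD over genes was 0.146 below a mean of 1 TPM and 0.106 between 5 and 10 TPM, and at 5 TPM or more 13 genes were at least 1.5-fold lower and none higher. The part of span and level in the counts was not tested.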

How the data were processed

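RNA was measured in 54 libraries of embryonic stem cells and Nr5a2 binding in 12 ChIP-seq libraries. RNA libraries were depleted of ribosomal RNA, stranded and paired-end, per the labels' protocols. The authors deposited expression as TPM, 1 mean column per group of 3 libraries, and the tools were STAR, RSEM and DESeq2 on build mm10, per the submitters' processing notes, which give no role or order. The authors' deposited table also gives a call per gene, whose test is not given in the sources used here. Nr5a2 peaks were deposited by the authors as 1 list of coordinates and class codes, with Bowtie2 and MACS2 named per the submitters' processing notes, and other values are not in it. No depth or interval per library can be given.

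From these, log2(TPM + 1) with auxin minus without auxin was computed for genes of at least 1 TPM in any column, with Python 3.11.15, numpy 2.4.6, pandas 2.3.3 and scipy 1.17.1, and checked on simulated data. Counts use 1.5-fold on the TPM + 1 scale. Peaks were counted within a gene or 10 kb of it, on RefSeq positions of GRCm38.p6 found for 13952 of 13957 symbols. Library-level tests were not run, because the columns are group means. The rule for named genes took the receptors and the naive list, the 20 lowest and 20 highest differences, up to 4 members of each other list, and genes departing from 60 and 120 minutes or not called, and not every list member it took is named. Genes named outside it were chosen after their values were seen. Members and lists were chosen with earlier results of these data known. Alternatives were a pseudocount of 0.1, other filters, folds and margins, centring on the median and quantile normalization.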

Additional observations from a re-analysis of the deposited data

How the results depend on the processing

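No paired analysis was possible because each column is the mean of 3 libraries, and leaving out a library could not be run for the same reason. Depth is unknown, so low genes cannot be weighed by their counts. The count of genes at least 1.5-fold lower (36) was 112 with a pseudocount of 0.1 TPM, 165 with a smaller fold threshold and 4 at 2-fold. The count higher (10) was 45 with that pseudocount, 56 with the smaller fold, 2 at 2-fold, 6 after centring on the median, 4 with quantile normalization and 4 where both groups had to reach 1 TPM, an alternative chosen after seeing the data. All 36 and all 10 were kept with the pseudocount of 0.1. This holds by construction, because a smaller pseudocount only moves each ratio further from equal, so it tests nothing. With quantile normalization 29 of 36 and 4 of 10 were kept. The median over all genes (0.03) was 0.014 without a filter and 0.013 with quantile normalization. After centring, 94.2% of the genes with a lower call and 80.7% of those with a higher call in the authors' deposited table had that direction at 90 minutes, and with quantile normalization 85.8% of those with a higher call did. Within 2 kb, 75% of the lower genes had an Nr5a2 peak. List medians that turned negative after centring were mitotic G2/M (-0.025), p53 response (-0.00862), aryl hydrocarbon receptor (-0.019), threonine and one-carbon (-0.015), DNA methylation (-0.015) and coregulators (-0.026), and with quantile normalization mitotic G2/M (-0.014), DNA methylation (-0.0028) and coregulators (-0.0076). Lin28a (-0.0037), Nqo1 (-0.017) and Nfe2l2 (-0.021) turned negative after centring, and Nqo1 (-0.0027) with quantile normalization. Centring subtracts the same value from each gene, and the cause of the other shifts was not tested.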

Other observations

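The time of the highest level after release was also counted. Among all genes of at least 1 TPM, 2726 with auxin and 2122 without auxin were highest at 90 minutes, and 3315 with auxin and 4107 without auxin at 60 minutes. The median difference over all genes was -0.06 at 60 minutes and 0.03 at 90 minutes. The counts were not corrected for this shift, so they do not show a later peak with auxin. Of the 37 naive pluripotency genes, 17 with auxin and 16 without auxin were highest at 90 minutes. From 90 to 120 minutes 33 of these with auxin and 32 without auxin were lower at the later time, beside 6244 with auxin and 6302 without auxin of the 8999 genes. At 90 minutes the naive genes stood above asynchronous cells of the same arm by a median of 0.47 with auxin and 0.49 without auxin on the log2 scale, and all genes by 0.68 with auxin and 0.62 without auxin. These counts rest on group means and were not tested.

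The regulators of DNA methylation included Tet1, a methylcytosine oxidase, at 11.6 TPM with auxin and 14.0 TPM without auxin (-0.25) beside Tet2 (-0.25). Jarid2 (-0.27) and Mtf2 (-0.18), which recruit Polycomb complex PRC2, were the lower members of the Polycomb list called in the authors' deposited table with the largest differences. Of the 27 Polycomb genes in the table, 4 are called lower and 6 higher there. Ubtf, which drives ribosomal RNA transcription, had 6.43 TPM with auxin and 8.22 TPM without auxin (-0.31). In the ribosome biogenesis list Nop10, of small nucleolar ribonucleoproteins, was lowest (-0.55), and Nhp2, of the same particles, was at -0.16. Ddit4, a stress-induced inhibitor of mTORC1, had 4.37 TPM with auxin and 6.46 TPM without auxin (-0.48), and Perp, a p53 target, had 1.78 TPM with auxin and 1.29 TPM without auxin (0.28). None of these genes reached 1.5-fold.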
